A study of Homo sapiens with 12 samples.

Results

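The aryl hydrocarbon receptor (AHR) pathway was examined as 8 genes named by symbol, the receptor AHR, its partner ARNT, the repressors AHRR and TIPARP, the cytochrome P450 genes CYP1A1, CYP1A2 and CYP1B1, and the aldehyde dehydrogenase gene ALDH3A1. All 8 were found among the 54127 features of the count files, and all 8 were among the 14505 genes tested. C4-2 cells, an androgen-independent derivative of the LNCaP human prostate cancer line, were grown in RPMI medium with 10% FBS and received either DMSO, the vehicle (6 libraries), or PBKi at 1 µM (6 libraries). PBKi is TOPK32, an inhibitor of the kinase activity of PBK (PDZ domain binding kinase, also called TOPK), and the study's methods give 6 h of treatment. RNA from both groups was sequenced to ask how PBK inhibition alters the transcriptome, and the AHR genes were compared here because some small-molecule kinase inhibitors are known to act as AHR ligands. Both groups are a single cell line, and the sources used here do not say whether the 6 libraries of a group came from separate cultures, so the p-values measure the spread between these libraries.

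AHR is a ligand-activated transcription factor of the bHLH-PAS family. Without ligand it rests in the cytoplasm with HSP90 and the p23 protein PTGES3, and on binding a ligand such as dioxin it moves to the nucleus, pairs with ARNT and binds a short DNA motif, the xenobiotic response element. CYP1A1, CYP1A2 and CYP1B1, which oxidise polycyclic aromatic compounds and oestrogens, are its classical targets, and AHRR and TIPARP are targets that restrain the receptor.

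The xenobiotic response element has the core GCGTG. Stretches are shown for TIPARP, CYP1A1 and CYP1B1, the genes with the most cores in the window searched, and for CYP1A2, the neighbour of CYP1A1 with a single core. Each is a stretch of 150 bases with the most cores within 1500 bases upstream of the start of the canonical transcript (the most distant one where several had as many; GRCh37 sequence, GENCODE 44 annotation lifted to that build), read 5′ to 3′ on the strand of the gene, with the core on either strand (GCGTG or its complement CACGC) in capitals. The stretches hold 5 cores for TIPARP, 3 each for CYP1A1 and CYP1B1 and 1 for CYP1A2. The CYP1A1 stretch (chr15:75018980-75019129, minus strand) lies 1260 to 1111 bases upstream of the start and the CYP1B1 stretch (chr2:38304202-38304351, minus strand) 1058 to 909 bases upstream. The TIPARP stretch (chr3:156392093-156392242, plus strand) lies 286 to 137 bases upstream, over an exon of the antisense transcript TIPARP-AS1, and the CYP1A2 stretch (chr15:75040659-75040808, plus strand) 527 to 378 bases upstream.
CYP1A1: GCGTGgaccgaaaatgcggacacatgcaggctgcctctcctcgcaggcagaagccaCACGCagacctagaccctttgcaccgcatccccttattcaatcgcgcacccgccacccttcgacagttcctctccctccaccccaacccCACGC
CYP1B1: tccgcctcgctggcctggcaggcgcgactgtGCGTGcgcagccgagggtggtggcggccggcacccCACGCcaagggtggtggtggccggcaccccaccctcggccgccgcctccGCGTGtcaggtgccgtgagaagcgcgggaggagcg
TIPARP: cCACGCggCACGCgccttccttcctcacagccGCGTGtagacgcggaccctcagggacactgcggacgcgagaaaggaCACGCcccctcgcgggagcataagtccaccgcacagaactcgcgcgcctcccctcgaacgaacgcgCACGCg
CYP1A2: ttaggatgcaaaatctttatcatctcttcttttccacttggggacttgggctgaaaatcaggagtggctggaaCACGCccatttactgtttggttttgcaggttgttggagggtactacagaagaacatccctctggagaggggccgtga

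The core was common, being present in 80.3% of the 19867 promoters of that length, with a median of 2 matches. CYP1A1 held 10 cores, a number reached by 0.594% of promoters, and CYP1B1 held 7, reached by 3.78%. TIPARP held 6, ARNT 5, AHRR and ALDH3A1 4 each, CYP1A2 1 and AHR 0. For all but AHRR and CYP1A2 the annotated gene reaches upstream of the canonical start, so the window lies partly or wholly within the gene. The longer form TNGCGTG, which contains the core and was searched on both strands, was in 26.5% of promoters. CYP1A1 held 5 matches to it, a number reached by 0.0201% of promoters, CYP1B1 held 4, reached by 0.0604%, ARNT held 2, AHRR and ALDH3A1 held 1 each, and AHR, CYP1A2 and TIPARP held none. The core contains a CpG, and the CYP1A1 and CYP1B1 windows were rich in G and C (66.7% and 65.0%, against 45.3% for CYP1A2 and 48.8% for TIPARP). The antioxidant response element, searched on both strands as TGACNNNGC and present in 43.2% of promoters, had 1 match each upstream of ARNT and AHRR and none upstream of the other 6 genes. These are matches of letters and not measured binding, and no count of cores ordered the genes by their response, since CYP1A2 with 1 core changed more than CYP1A1 with 10, and CYP1B1 with 7 fell.

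Library depth ranged from 9663203 to 28029908 reads in genes for DMSO and from 13122415 to 22817803 for PBKi. The first principal component separated the groups (61.0% of the variance) and the second (9.76%) separated replicates 1 to 3 from replicates 4 to 6, a division that the labels do not name as a batch. Reads outside genes made up 9.30% in PBKi replicate 3 and 8.83% in PBKi replicate 6, against 5.74% to 6.96% in the other 10 libraries. Levels are given as CPM, counts per 1000000 reads in genes after TMM scaling of the libraries, and fold changes as PBKi against DMSO. The prostate epithelial marker list summed to 4238 to 5011 CPM in DMSO and 1906 to 2795 CPM in PBKi, with 5 of 7 genes lower and 1 higher; KLK3, KLK2 and TMPRSS2, which the androgen receptor activates, fell most. Immune markers summed to at most 1.14 CPM, endothelial markers to at most 7.25 CPM and stromal markers to at most 23.5 CPM in any library. Hepatocyte markers, listed because CYP1A2 is a liver enzyme, summed to 0.923 to 1.73 CPM in DMSO and 1.65 to 2.40 CPM in PBKi, and ALB was at 0 in every library.

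All 6 PBKi libraries held more AHR, TIPARP, CYP1A1, CYP1A2 and ALDH3A1 transcript than any DMSO library. AHRR rose with overlapping groups, CYP1B1 fell, and ARNT did not pass the test in the fit without covariates. With edgeR (quasi-likelihood test, p-values adjusted by Benjamini-Hochberg over all 14505 genes), 6 of the 8 genes were higher in PBKi and 1 was lower at adjusted p under 0.05. Many genes moved, and of all genes tested 20.1% were higher and 21.5% lower, 41.7% in all. The groups did not overlap for 5 of the 8 genes, against 20.1% of all genes tested. ALDH3A1 entered the test only through its PBKi libraries, since 1 of 6 DMSO libraries held 10 or more reads, and AHRR and CYP1A2 held 10 or more in 4 of 6 DMSO libraries, so these counts are a description of the 8 genes. The median log2 fold change of the 8 genes was 0.97, beside -0.012 for all genes tested. Each library pooled RNA of many cells, which the labels describe as flow sorted and for which the study's methods name no sort. A change in the share of expressing cells and a change in RNA per cell thus cannot be told apart.

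**Figure D1:**
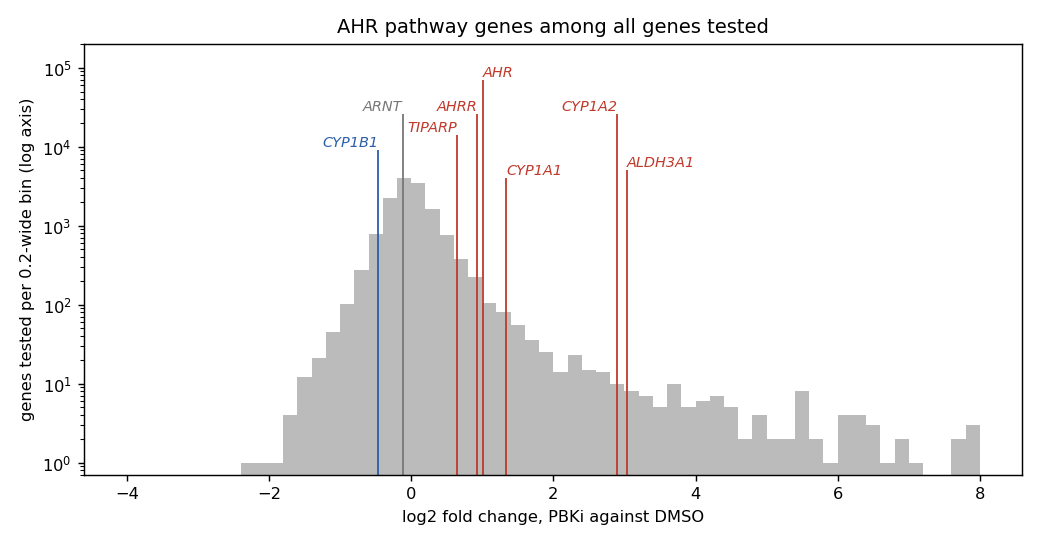
Histogram of log2 fold change (PBKi against DMSO, x axis) over the 14505 genes tested, with genes per 0.2-wide bin on a log y axis; changes above 8 are placed in the last bin. Lines mark the 8 AHR pathway genes (red, higher; blue, lower; grey, ARNT, which did not pass the test); CYP1A2 at 2.90 and ALDH3A1 at 3.04 lie far to the right of the main peak.

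AHR (ENSG00000106546, chr7:16955983-17385776, plus strand) encodes the receptor. Its level in DMSO was 14.2, 12.8, 13.9, 17.2, 13.8 and 16.7 CPM in replicates 1 to 6, and in PBKi 24.4, 31.0, 34.5, 27.7, 27.7 and 32.8 CPM. All 6 PBKi libraries lay above every DMSO library. The mean rose from 14.8 ± 1.76 (SD, n = 6) to 29.7 ± 3.74 CPM (SD, n = 6), 2.02-fold, with a log2 fold change of 1.01 ± 0.092 (SE) and an adjusted p of 1.56e-07. Of all genes tested, 3.21% had a higher fold change than AHR. Its annotated exons share 29.5% of their bases with a second protein-coding gene model that was not counted in the files.

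ARNT (ENSG00000143437, chr1:150782189-150849184, minus strand) encodes the partner that AHR needs to bind DNA, and which HIF1A also uses. DMSO libraries ranged from 80.7 through a median of 88.4 to 98.5 CPM, and PBKi libraries from 77.2 through 81.2 to 85.3 CPM. The ranges overlapped, with 2 of 6 PBKi libraries below every DMSO library. The log2 fold change was -0.12 ± 0.054 (SE; 95% interval -0.23 to -0.006), with an adjusted p of 0.0844. The exact two-sided permutation test over libraries, which is not adjusted for the number of genes, gave p = 0.0303. ARNT was not called in this fit, but it was called lower when the difference between replicates 1 to 3 and replicates 4 to 6 was fitted as a covariate (-0.12, adjusted p = 0.0335) and without DMSO replicate 1 (-0.14, adjusted p = 0.0472). Whether ARNT passed thus depended on the fit.

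TIPARP (ENSG00000163659, chr3:156391024-156424559, plus strand) encodes a mono-ADP-ribosyltransferase that modifies AHR and lowers its activity. It measured 16.3, 15.3, 16.1, 16.2, 14.9 and 15.5 CPM in DMSO replicates 1 to 6, and 24.9, 25.8, 27.7, 22.9, 23.4 and 23.9 CPM in PBKi. The DMSO libraries were close together and all PBKi libraries lay above them. The rise from 15.7 ± 0.564 to 24.8 ± 1.77 CPM (SD, n = 6 each) was 1.57-fold, with a log2 fold change of 0.65 ± 0.063 (SE) and an adjusted p of 3.24e-07.

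AHRR (ENSG00000063438, chr5:321829-438406, plus strand) encodes the repressor that competes with AHR for ARNT. It was sparse, with 5 to 25 reads per DMSO library and 19 to 57 per PBKi library. Its level was 1.15, 1.02, 0.902, 0.554, 1.30 and 0.420 CPM in DMSO replicates 1 to 6, and 1.73, 1.52, 2.42, 1.12, 1.28 and 2.14 CPM in PBKi. The groups overlapped, and 4 of 6 PBKi libraries lay above every DMSO library. The mean rose from 0.891 ± 0.342 to 1.70 ± 0.503 CPM (n = 6 each, SD), which on the log2 scale was a fold change of 0.93 ± 0.25 (SE) with an adjusted p of 0.00705. Without PBKi replicates 3 and 6, which were the 2 highest for AHRR and also had the most reads outside genes, the log2 fold change was 0.63 and the adjusted p 0.0729, in a fit added after the data were seen. With only the lanes that every library shares, it was 0.76 with an adjusted p of 0.0655. The annotated exons of AHRR share 58.7% of their bases with the readthrough gene PDCD6-AHRR, which was not counted in the files, so reads of both gene models cannot be told apart.

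**Figure D2:**
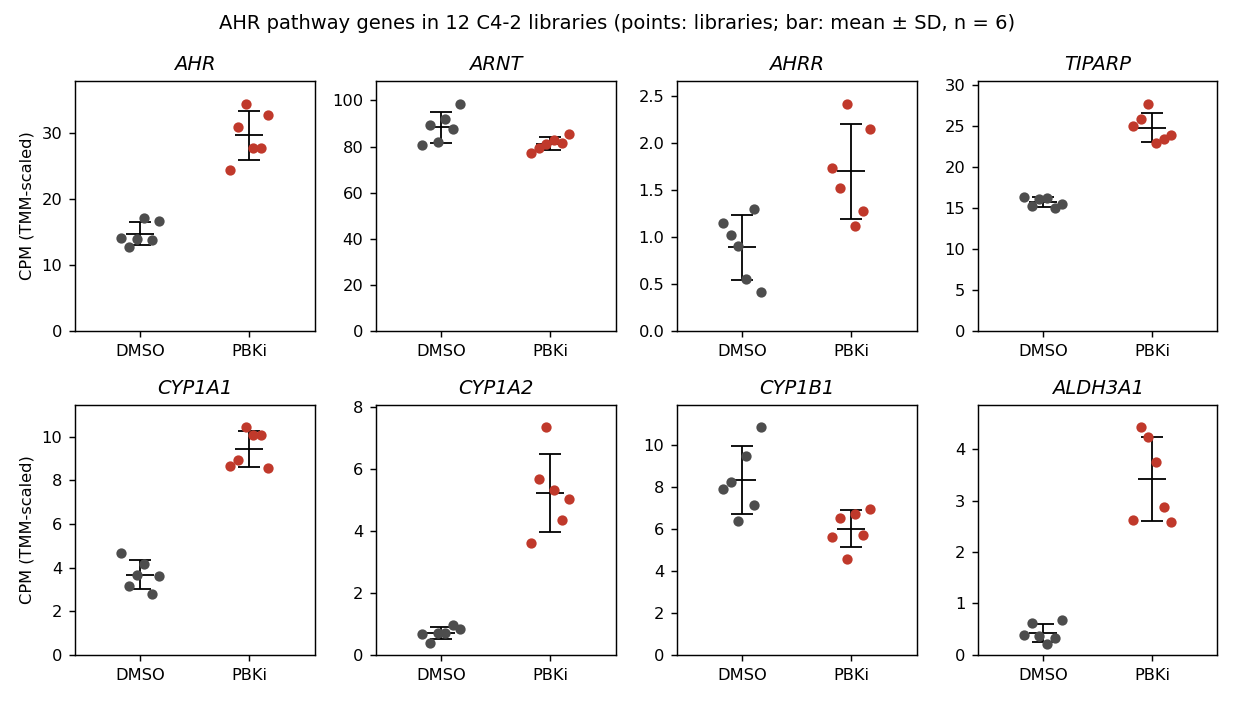
TMM-scaled CPM (y axis from 0, own scale per panel) for the 8 genes in 6 DMSO libraries (grey) and 6 PBKi libraries (red); points are libraries in replicate order, and bars give the mean and SD. The groups are apart for AHR, TIPARP, CYP1A1, CYP1A2 and ALDH3A1 and overlap for ARNT, AHRR and CYP1B1.

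CYP1A1 and CYP1A2 are neighbouring genes on chromosome 15 that are transcribed away from each other, 23308 bases apart, and both encode enzymes of aromatic compound oxidation. CYP1A1 (ENSG00000140465, chr15:75011883-75017877, minus strand) measured 4.65, 3.14, 3.68, 4.16, 2.81 and 3.61 CPM in DMSO replicates 1 to 6, and 8.64, 8.92, 10.4, 10.1, 10.1 and 8.57 CPM in PBKi. Every PBKi library was above every DMSO library. The mean rose from 3.67 ± 0.667 to 9.45 ± 0.830 CPM (SD, n = 6 each), 2.53-fold, with a log2 fold change of 1.34 ± 0.11 (SE) and an adjusted p of 5.28e-08. Of all genes tested, 2.14% had a higher fold change.

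CYP1A2 (ENSG00000140505, chr15:75041186-75048948, plus strand) is best known as a liver enzyme that metabolises caffeine. It was near the lower limit of counting in DMSO, with 5 to 20 reads and 0.672, 0.392, 0.721, 0.692, 0.974 and 0.839 CPM in replicates 1 to 6. PBKi libraries held 48 to 173 reads, at 3.61, 5.67, 7.33, 5.31, 4.36 and 5.02 CPM. The lowest PBKi library was above the highest DMSO library. The mean rose from 0.715 ± 0.194 to 5.22 ± 1.27 CPM (SD, n = 6 each), 7.46-fold, with a log2 fold change of 2.90 ± 0.20 (SE) and an adjusted p of 6.84e-09. Of the 5 hepatocyte markers, ALB was at 0 throughout, and of the 2 that were tested 1 was higher and 1 lower, with a median log2 fold change of -0.086. The higher sum of the list in PBKi came largely from 1 marker too sparse to be tested, with 7 reads in DMSO and 74 in PBKi, and its part in the CYP1A2 result was not tested.

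The 8 other tested protein-coding genes within 150 kb of the pair, examined after its values were seen, changed little. EDC3 was higher (log2 fold change 0.26), CLK3 (-0.26) and MPI (-0.23) were lower, and ARID3B, CSK, ULK3, SCAMP2 and FAM219B did not pass the test. CSK, the nearest tested gene on the CYP1A2 side, measured 80.6 CPM in DMSO and 74.2 CPM in PBKi.

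**Figure D3:**
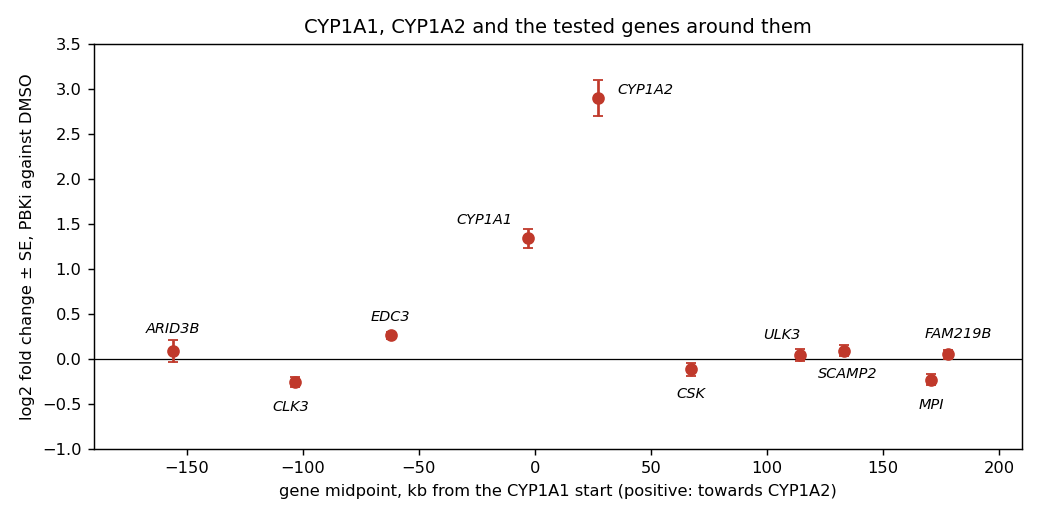
Log2 fold change with its SE (PBKi against DMSO, y axis) of the 10 tested protein-coding genes around CYP1A1 and CYP1A2, by the distance of the gene's midpoint from the CYP1A1 start (kb, x axis). CYP1A1 (1.34) and CYP1A2 (2.90) stand above their neighbours, which lie between -0.26 and 0.26.

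CYP1B1 (ENSG00000138061, chr2:38294116-38337044, minus strand), the family member found mostly outside the liver, moved the other way. Its level was 7.92, 8.23, 6.38, 9.49, 7.14 and 10.8 CPM in DMSO replicates 1 to 6, and 5.64, 6.50, 4.58, 6.69, 5.71 and 6.94 CPM in PBKi. The groups overlapped, with 3 of 6 PBKi libraries below every DMSO library. The mean fell from 8.33 ± 1.61 to 6.01 ± 0.879 CPM (n = 6 each, SD), which on the log2 scale was a fold change of -0.46 ± 0.13 (SE; 95% interval -0.74 to -0.19) with an adjusted p of 0.00928. The exact two-sided permutation test gave p = 0.0108 for CYP1B1, and likewise 0.0108 for AHRR. For AHR, TIPARP, CYP1A1, CYP1A2 and ALDH3A1 the same permutation test gave 0.00216, the smallest value that 6 libraries against 6 allow. CYP1B1-AS1 overlaps 11.2% of the exon bases of CYP1B1 on the other strand and held 11 reads in all libraries together.

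The levels of the CYP1 family were also set side by side within each library. This description was chosen after the values of the 3 genes were seen, and it restates their changes on another scale. Per kb of exon, CYP1B1 made up 51.0% ± 5.41 of the family in DMSO and 18.4% ± 3.28 in PBKi (SD, n = 6 each). CYP1A1 went from 40.5% ± 5.36 to 51.5% ± 3.54 and CYP1A2 from 8.56% ± 2.77 to 30.1% ± 4.70. The family sum went from 2.70 ± 0.363 to 5.47 ± 0.521 CPM per kb. Log2 ratios within a library were taken from log2 CPM with a prior count of 2. That of CYP1A1 to CYP1B1 was -1.15 ± 0.33 in DMSO and 0.65 ± 0.30 in PBKi (SD, n = 6 each). The ratio of CYP1A2 to CYP1B1 went from -3.35 ± 0.46 to -0.22 ± 0.46 on the same log2 scale, and that of CYP1A1 to CYP1A2 from 2.20 ± 0.46 to 0.87 ± 0.29. No test of these ratios is given, as they were chosen for the opposite or unequal changes of the genes. The scaling between libraries enters these ratios only through the prior count, which weighs most where reads are few, as for CYP1A2 in DMSO.

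**Figure D4:**
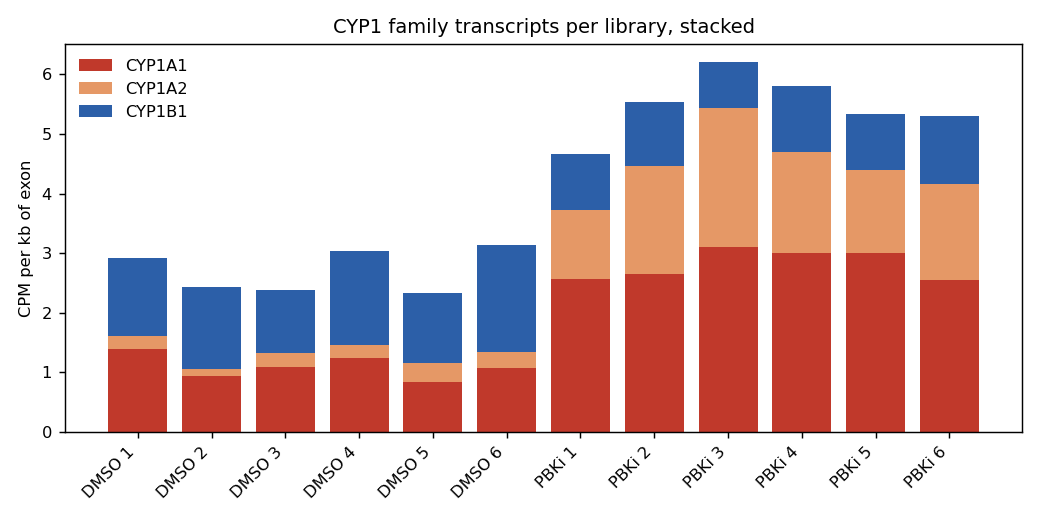
Stacked bars of CYP1A1, CYP1A2 and CYP1B1 in CPM per kb of exon (y axis, from 0) for each of the 12 libraries (x axis, group and replicate). The CYP1B1 part is about as tall as the others together in DMSO and is the smallest part in the PBKi libraries, while the whole bar is taller in PBKi.

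ALDH3A1 (ENSG00000108602, chr17:19641297-19652256, minus strand) encodes a dehydrogenase that detoxifies aromatic and medium-chain aldehydes. It had 3 to 10 reads per DMSO library and 35 to 100 per PBKi library. Its level was 0.384, 0.627, 0.361, 0.208, 0.325 and 0.671 CPM in DMSO replicates 1 to 6, and 2.63, 4.42, 4.24, 3.75, 2.89 and 2.59 CPM in PBKi. Every PBKi library was above every DMSO library, and the highest DMSO level was 0.671 against a lowest PBKi level of 2.59 CPM. The mean rose from 0.429 ± 0.181 to 3.42 ± 0.823 CPM (SD, n = 6 each), 8.22-fold, with a log2 fold change of 3.04 ± 0.24 (SE; 95% interval 2.54 to 3.54) and an adjusted p of 2.76e-08. As only 1 of 6 DMSO libraries held 10 or more reads, ALDH3A1 was tested because of its level in PBKi, and a gene that enters this way had to differ, so its p adds little to the separation of the libraries. Its fold change and that of CYP1A2 lay within their errors of each other, and CYP1A2 had the larger one in replicates 1 to 3 alone.

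Outside the 8 genes, a list of 16 further genes reported to respond to AHR was mixed. Of the 9 that were tested, 3 were higher, 1 was lower and 5 did not pass the test, with a median log2 fold change of 0.084. This share of genes called is near the 41.7% of all genes tested, and the counts of the lists below likewise stand beside 20.1% higher and 21.5% lower over all genes. NQO1, a quinone reductase that is also a target of the oxidative stress factor NRF2, rose from 339 to 899 CPM (log2 fold change 1.41 ± 0.074, SE; adjusted p = 1.48e-10). ABCG2, a drug efflux pump, rose from 2.00 to 3.75 CPM (0.91 ± 0.15; adjusted p = 9.19e-05), NFE2L2, which encodes NRF2, rose by 0.13 on the log2 scale, and HES1, a Notch pathway repressor, fell by 0.25. The glutathione transferase genes GSTA1 and GSTA2, CYP2S1, the amino acid transporter gene SLC7A5 and the hormone gene STC2 did not pass the test. UGT1A1, UGT1A6, EREG, SERPINB2, PTGS2, IDO1 and IL1B had too few reads to be tested. The UGT1A genes share their last exons, and the counting left reads that fit several genes out, so UGT1A1 and UGT1A6 cannot be judged from these counts.

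NRF2 targets were compared because several AHR targets, ALDH3A1 and NQO1 among them, are also known to respond to NRF2. Of 11 listed genes 10 were matched, and all 10 were higher in PBKi, with a median log2 fold change of 1.73 and a range of 0.67 to 7.76. AKR1C1, a ketosteroid reductase, went from 0.152 to 32.7 CPM and AKR1B10, an aldose reductase relative, from 0.0582 to 3.20 CPM, both from 14 reads or fewer over the 6 DMSO libraries. Both thus entered the test through their PBKi libraries and had to differ, so their calls add little to the count of 10. AKR1C1 also sets the top of the range. OSGIN1 rose by 2.87 and GCLM, a subunit of glutathione synthesis, by 1.75 on the log2 scale. CYP1A1 (1.34) and AHR (1.01) lay below the median of this list, and CYP1A2 (2.90) and ALDH3A1 (3.04) above it. How far each receptor or factor contributes to these levels was not tested.

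Among genes for the proteins that hold AHR in the cytoplasm, PTGES3 fell from 878 to 747 CPM (log2 fold change -0.23 ± 0.056, SE; adjusted p = 0.00305). HSP90AA1 (0.12), HSP90AB1 (-0.073) and SRC (-0.10) did not pass. Of 9 coregulators, 2 were higher, NCOA2 (0.31) and NCOA3 (0.21), and none of the 4 genes of AHR turnover passed the test.

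ARNT also pairs with the hypoxia factors, and none of its 5 tested partners on the list passed the test, including HIF1A (0.031), EPAS1 (0.062) and ARNT2 (-0.13), the last a close relative of ARNT. Of 8 tested HIF targets, 6 were lower and 1 was higher, with a median log2 fold change of -0.65. PDK1, which limits pyruvate entry to mitochondria, fell by 0.92, NDRG1 by 0.92, ANKRD37 by 0.90 and BNIP3, a mitophagy receptor, by 0.69 on the log2 scale, LDHA fell by 0.61, and VEGFA rose by 0.23. Of the enzymes that work beside the CYP1 proteins, POR, which passes electrons to all microsomal P450 enzymes, did not pass (0.037), EPHX1, an epoxide hydrolase, rose by 0.44, and CYB5A fell by 0.20. Among 10 other tested genes of the PARP family, relatives of TIPARP, 6 were higher and 1 lower, with a median of 0.39. ZC3HAV1 (0.70), PARP14 (0.68) and PARP4 (0.55) rose most and PARP16 fell by 0.38.

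Of 7 tested P450 genes from families 2 and 4, 2 were higher and 1 lower. CYP4F3, a leukotriene hydroxylase, rose from 0.271 to 5.21 CPM (log2 fold change 4.16 ± 0.27, SE), with an adjusted p of 2.29e-09. It held 28 reads over all DMSO libraries and 554 over all PBKi libraries. CYP4F3 was thus tested because of its level in PBKi and had to differ, so its p and its call add little. CYP2R1, the vitamin D 25-hydroxylase, rose by 0.32, and CYP4F8 fell by 1.08 on the log2 scale. CYP4F8 was sparse too, with 104 reads over all DMSO libraries and 51 over all PBKi libraries, and its groups overlapped. On a list of 10 genes of the related xenobiotic receptors PXR and CAR, 4 were tested and 1, RXRA, was higher (0.21).

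**Figure D5:**
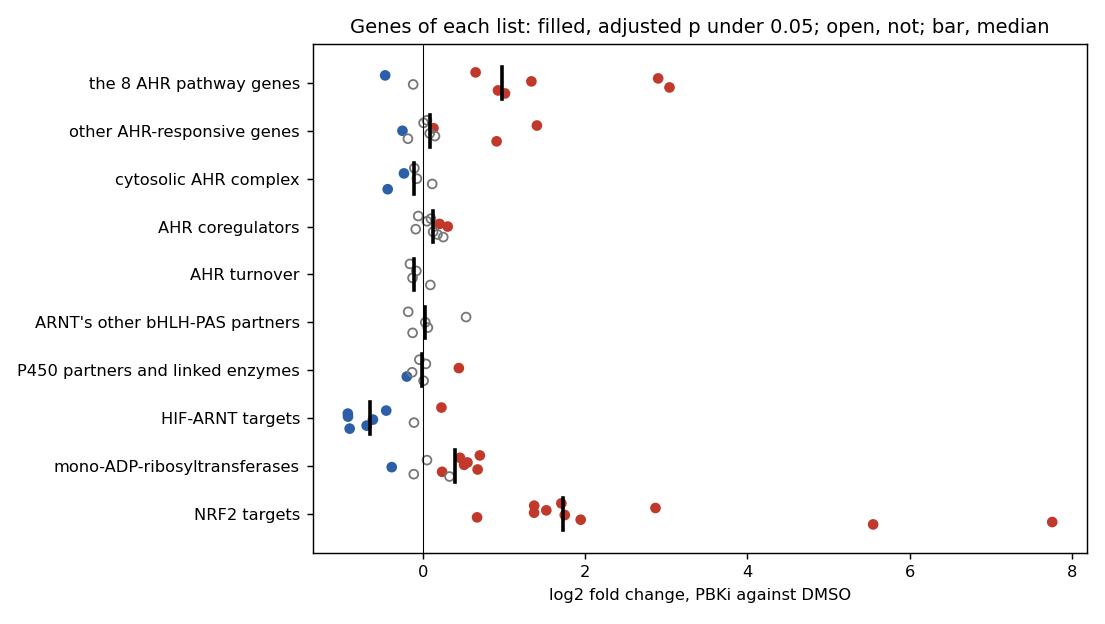
Log2 fold change (PBKi against DMSO, x axis) of each tested gene of 10 lists (rows), filled red where higher and blue where lower at adjusted p under 0.05, open where not, with a bar at the list's median. The medians are 0.97 for the 8 AHR pathway genes, 0.084 for other AHR-responsive genes, -0.65 for HIF-ARNT targets and 1.73 for NRF2 targets.

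Levels were set side by side per kb of exon, with exon lengths from the GENCODE annotation. In DMSO the order was ARNT (13.7 CPM per kb), TIPARP (3.28), AHR (1.83), CYP1B1 (1.38), CYP1A1 (1.09), CYP1A2 (0.228), ALDH3A1 (0.111) and AHRR (0.0940). The ranges over libraries overlapped between AHR and CYP1B1, CYP1B1 and CYP1A1, CYP1A2 and ALDH3A1, CYP1A2 and AHRR, and ALDH3A1 and AHRR. In PBKi the order was ARNT (12.6 CPM per kb), TIPARP (5.16), AHR (3.69), CYP1A1 (2.81), CYP1A2 (1.67), CYP1B1 (0.998), ALDH3A1 (0.881) and AHRR (0.179), with overlap between AHR and CYP1A1, CYP1A2 and CYP1B1, and CYP1B1 and ALDH3A1. CYP1B1, the highest of the family in DMSO by its mean, was the lowest in PBKi, and AHRR was last in both.

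Replicates 1 to 3 and 4 to 6, fitted apart, gave the same directions for all 8 genes. The log2 fold changes in the first and second set were 1.15 and 0.87 for AHR, 0.73 and 0.58 for TIPARP, and 0.95 and 1.03 for AHRR. They were 1.29 and 1.42 for CYP1A1, 3.17 and 2.58 for CYP1A2, -0.43 and -0.52 for CYP1B1, 3.15 and 2.96 for ALDH3A1, and -0.07 and -0.16 for ARNT. AHRR did not pass the test in the second set alone (adjusted p = 0.111). PBKi replicate 3 was the highest of its group for AHR, AHRR, CYP1A1, CYP1A2 and TIPARP and the lowest for CYP1B1. It also lay farthest along the first principal component, and its share of reads outside genes was the highest.

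For the 2 genes with the largest changes, the tested genes with the most similar profile over the 12 libraries were found by Pearson's r of log2 CPM, as a description. For ALDH3A1 these were CHST1 (r = 0.983), ZPLD1 (0.981) and MFSD1 (0.981), and for CYP1A2 they were TPP1 (0.990), TMEM40 (0.989) and DMRT1 (0.988). As the libraries form 2 separate groups, such values mostly follow the difference between the groups, and 208 genes exceeded 0.95 for ALDH3A1 and 326 for CYP1A2.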

How the data were processed

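C4-2 RNA from 6 DMSO and 6 PBKi samples was analysed. Per the labels, total RNA (miRNeasy) of flow sorted cells was made into TruSeq RNA libraries, whereas the study's methods name the AllPrep kit and 40-base single-end reads. The authors aligned reads to GRCh37 with TopHat2 2.0.4, counted them per Ensembl gene with HTSeq 0.5.3p9, and deposited raw counts per sequencing lane; the submitters' processing notes also name DESeq 1.10.1. Whether counting used strand is not given in the sources used here, so reads of overlapping antisense genes may not be told apart.

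The lanes of each library (4, or 3 for DMSO replicate 5) were summed, since lanes differed by no more than counting noise (chi-square divided by its degrees of freedom, 0.993 to 1.02, against 4.11 to 25.2 between replicates). Reads in no feature (5.74% to 9.30%) or ambiguous between features (3.87% to 4.35%) were left out of library sizes. Depth was 9663203 to 28029908 reads per library, so genes with under 100 reads carry a wide counting error. The 14505 genes that had 10 or more counts in 6 or more libraries were tested with edgeR 4.0.16 (TMM, quasi-likelihood test) in R 4.3.3, with Benjamini-Hochberg adjustment over all of them and a threshold of 0.05. CPM are TMM-scaled. Single genes were also tested with a two-sided exact permutation test of mean log2 CPM (prior count 2). On simulated counts for this comparison and its 14505 genes, 94% of genes changed by 1 on the log2 scale and 100% of those changed by 2 were recovered, and 4.43% of calls were unchanged genes. The simulation changed 100 genes by each amount, far fewer than were called in the data, and held no difference between sets of replicates. Its rates may thus differ from those in the data.

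Symbols came from the GENCODE 44 annotation lifted to GRCh37 and matched 47098 of 54127 features; coordinates and exon lengths are from that annotation. Alternatives were other normalisations, tests, filters, lanes and libraries (limma 3.58.1, DESeq2 1.42.0). All 8 genes were named, and from each further list up to 5 called genes with the largest change plus genes with a shared role; VEGFA, PARP16 and genes named as not passing were added after their values were seen. The genes and lists were chosen with earlier results of these data known. Some genes of these lists are not reported here by name. Protein sequences were not used here.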

Additional observations from a re-analysis of the deposited data

How the results depend on the processing

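AHR, TIPARP, CYP1A1, CYP1A2, CYP1B1 and ALDH3A1 kept their direction and their side of the threshold under every alternative that gave a value (26 for AHR, TIPARP, CYP1A1 and CYP1B1, 25 for CYP1A2, 24 for ALDH3A1). ALDH3A1 passed the count filter mainly through its PBKi libraries, so its unchanged call under alternatives that used the filter adds little. Requiring 10 counts in all 12 libraries gave no value for AHRR, CYP1A2 and ALDH3A1, and leaving out PBKi replicates 3 and 6, chosen after seeing the data, gave none for ALDH3A1, because too few libraries then passed the count filter. AHRR lost its call with lanes 6 to 8 only (log2 fold change 0.76, adjusted p = 0.0655), in replicates 4 to 6 alone (1.03, 0.111) and without PBKi replicates 3 and 6 (0.63, 0.0729). ARNT passed the threshold with a covariate for the 2 sets of replicates (-0.12, adjusted p = 0.0335), without DMSO replicate 1 (-0.14, 0.0472), and by the exact permutation test, which is not adjusted over genes, with a prior count of 2 or 0.5 (-0.12, p = 0.0303). With the replicate number as a block, ARNT also passed (-0.12, adjusted p = 0.0363), and 3485 genes were higher and 3803 lower. The labels give only a shared number as a pairing. Deviations from the group means correlated at 0.0887 to 0.299 between same-numbered libraries, with 1 of the 6 under 0.1. Their mean was 0.198, against -0.04 over the 30 other pairs. Same-numbered libraries also belong to the same set of replicates, 1 to 3 or 4 to 6, whereas the other pairs mix the sets. Variation shared by number and variation shared by set are thus not told apart by these means. For 3 of 6 replicates the correlation was best with their own number. The block changed no other call of the 8 genes. The count of 2921 genes higher became 1303 in replicates 4 to 6 alone and 1278 when a change of 0.5 or more on the log2 scale was also required, and that of 3125 genes lower became 1216, 626, 2004 without PBKi replicates 3 and 6 and 2073 at adjusted p under 0.01. Leaving out 1 library at a time gave 2531 to 3341 genes higher and 2586 to 3213 lower, and log2 fold changes of 0.97 to 1.07 for AHR, -0.14 to -0.074 for ARNT, 0.77 to 1.06 for AHRR, 1.29 to 1.43 for CYP1A1, 2.77 to 2.99 for CYP1A2, -0.55 to -0.37 for CYP1B1, 0.62 to 0.69 for TIPARP and 2.93 to 3.19 for ALDH3A1. The cause of the lost AHRR calls was not tested. Those fits used fewer reads or fewer libraries, and PBKi replicates 3 and 6 were the 2 highest for AHRR. DMSO libraries held at most 25 reads for AHRR, 20 for CYP1A2 and 10 for ALDH3A1, so depth limits all 3.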
